A study of Homo sapiens with 4 samples.

Results

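The sites described here are stretches of coding sequence that were crosslinked to full-length PRRC2B and were not called with its RNA-binding fragment. Plasmids were used to overexpress, in the human embryonic kidney line HEK293T, either FLAG-tagged full-length PRRC2B (FL) or P2, a FLAG-tagged truncated PRRC2B that carries the RG-rich stretch (RBD). Both kinds of culture also held their own PRRC2B, both were labelled with 4-thiouridine (4sU) for 16 h and exposed to light of 312 nm, and no culture without a tagged protein is among the 4 samples. There were 2 biological replicates for each construct, and the deposited lists pool them, so that no value below has a replicate error. Members were chosen by the peak calls themselves. A member is a distinct FL site of 100 nt, labelled by the authors as CDS and nothing else on a protein-coding gene, that overlaps no RBD site by 1 nt or more on the same strand. This left 173 of 261 FL coding-sequence sites (66.3%), out of 894 FL sites and 571 RBD sites in all.

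PRRC2B is a large proline-rich protein with arginine and glycine repeats, of the kind that contact RNA, and it associates with the initiation factors eIF3 and eIF4G2. Coding sequence is the part of an mRNA that ribosomes read, in steps of a codon, from the start codon to the stop codon. In PAR-CLIP, 4sU that was crosslinked appears as C in the reads, and a site around such changes marks contact between protein and RNA. Because the rule used the peak calls of both lists, heights and the sharing of sites are given as a description and no test was made on them. The 95% Wilson intervals below cover counting error only, and sites of the same gene are not independent.

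The middle 41 nt of 13 members are printed to show what such sites look like: the first 9 are among the tallest members, and the last 4 hold runs made of purines (G and A) or of pyrimidines (C and U) alone. They are read on the RNA strand of hg38 with T for U, all lie wholly in coding sequence, and capitals mark the 15 nt richest in G and A, or in C and U for H1-4, RPSAP58, OS9 and SREBF2.
RPS24, chromosome 10, 78037229 to 78037269, plus strand: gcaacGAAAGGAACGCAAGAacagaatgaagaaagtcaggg
H1-4, chromosome 6, 26156501 to 26156541, plus strand: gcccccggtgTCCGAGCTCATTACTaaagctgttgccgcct
RPSAP58, chromosome 19, 23827741 to 23827781, plus strand: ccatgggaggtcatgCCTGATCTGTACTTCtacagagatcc
GAPDH, chromosome 12, 6537628 to 6537668, plus strand: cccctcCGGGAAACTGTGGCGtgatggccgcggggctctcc
RPL7A, chromosome 9, 133350645 to 133350685, plus strand: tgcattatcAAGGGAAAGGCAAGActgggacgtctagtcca
OS9, chromosome 12, 57719052 to 57719092, plus strand: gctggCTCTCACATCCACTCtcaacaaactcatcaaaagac
NONO, chromosome X, 71297393 to 71297433, plus strand: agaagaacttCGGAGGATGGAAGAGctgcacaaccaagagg
MORF4L2, chromosome X, 103676775 to 103676815, minus strand: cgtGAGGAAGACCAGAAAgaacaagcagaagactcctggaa
PRPF6, chromosome 20, 63983165 to 63983205, plus strand: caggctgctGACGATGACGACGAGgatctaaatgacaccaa
PRC1, chromosome 15, 90981876 to 90981916, minus strand: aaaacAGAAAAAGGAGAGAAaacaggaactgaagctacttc
PPP1R7, chromosome 2, 241153485 to 241153525, plus strand: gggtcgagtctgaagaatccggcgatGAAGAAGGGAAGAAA
EIF3A, chromosome 10, 119056946 to 119056986, minus strand: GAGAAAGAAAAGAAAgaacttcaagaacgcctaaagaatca
SREBF2, chromosome 22, 41867020 to 41867060, plus strand: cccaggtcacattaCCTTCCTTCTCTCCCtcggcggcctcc
The marked stretch of RPL7A, a protein of the large ribosomal subunit, holds 14 purines of 15. The stretches of PRC1, a microtubule bundler of cell division, of PPP1R7, a regulatory subunit of protein phosphatase 1, and of EIF3A, the largest subunit of eIF3, hold 15 of 15. SREBF2, a transcription factor of sterol synthesis, has a stretch with 15 pyrimidines of 15. The tallest sites are less pure: 13 of 15 in RPS24 (purines), 10 of 15 in H1-4 (pyrimidines) and 10 of 15 in GAPDH (purines).

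Coding-sequence sites found with FL alone were shallow, in a list that was shallow as a whole. Peak height, the number of overlapping reads after removal of identical ones, ran from 4 to 36 with a median of 6 and quartiles of 5 and 8. Among the 173 members, 11 had a height of 4, 39 of 5, 47 of 6 and 25 of 7. Only 23 members (13.3%, interval 9.02 to 19.2) were at least 10 high. All 894 FL sites, members included, had a median of 7 and quartiles of 5 and 10, and 238 of them (26.6%) reached 10. The 88 FL coding-sequence sites that did overlap an RBD site had a median of 13, quartiles of 8 and 23, and 57 of them (64.8%) reached 10. Of these shared sites, 28 lay on PRRC2B itself, the mRNA of the transfected gene, and no member did. The 60 shared sites elsewhere had a median height of 9, and 29 of them (48.3%, interval 36.2 to 60.7) reached 10.

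**Figure D1:**
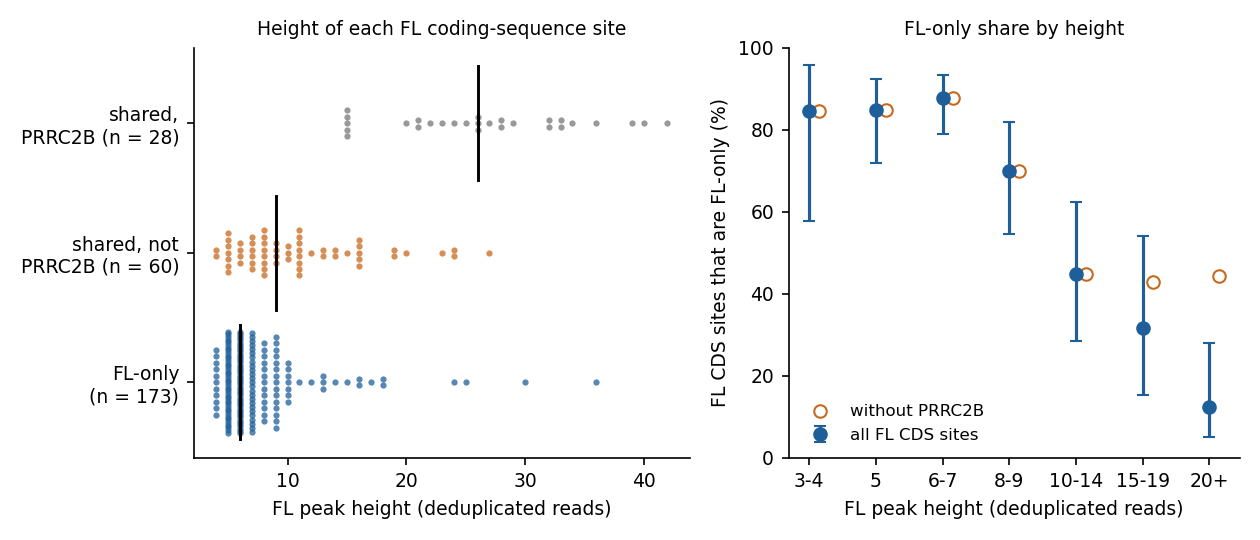
Left, the FL peak height of every FL coding-sequence site in deduplicated reads, 1 point per site and a line at the median. Right, the percent of FL coding-sequence sites that overlap no RBD site by height, with 95% Wilson intervals for all sites and open circles for sites outside PRRC2B. FL-only sites gather between 4 and 9, and their share is 84.6% at heights of 3 to 4 and 12.5% at 20 or more, or 44.4% there without PRRC2B.

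FL sites that overlapped no RBD site made up 66.3% of the coding-sequence sites and 64.7% of all FL sites. The share went down with height, from 72 of 82 sites at heights of 6 to 7 (87.8%) to 13 of 29 at 10 to 14 (44.8%) and 4 of 32 at 20 or more (12.5%). Outside PRRC2B it did not go lower at the tallest sites: 44.8% were FL-only at 10 to 14, 42.9% at 15 to 19 and 44.4% of 9 sites at 20 or more. Over all heights, 74.2% of the coding-sequence sites outside PRRC2B were FL-only.

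The split between FL-only and shared followed the gene. None of the 173 members lay on a gene with an RBD site anywhere in the lists (0 of 173, which allows a share of up to 1.73%). That limit treats sites as independent draws, which sites of the same gene are not. The same held for all 578 unshared FL sites, 0 of which were on a gene with an RBD site, and for all 251 unshared RBD sites, 0 of which were on a gene with an FL site. Of 76 genes with 2 or more FL sites, 35 had all of them shared, 41 had none shared and 0 had some of each. Being FL-only was therefore a property of the whole gene in these lists and not of single sites. The methods read here name no step that works gene by gene, and what gave this pattern was not tested.

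Just inside the rule, the member nearest to an RBD site on the same strand was that of H2BU1, a histone H2B gene, 29173 nt away. It was followed by CDC6, a licensing factor of DNA replication, at 46146 nt, by CDC34, a ubiquitin-conjugating enzyme, at 51302 nt, by UBN2, a histone chaperone subunit, at 67324 nt, and by FURIN, a protease of the secretory pathway, at 77261 nt. Just outside it, the shared sites with the smallest overlap were on PRRC2B (5 nt, height 33), ZNF503, a zinc finger protein (11 nt, height 6), H2BC18, a histone H2B (28 nt, height 5), SFPQ, an RNA-binding partner of NONO (56 nt, height 14), and again PRRC2B (65 nt, height 21). Most shared sites were nowhere near this edge: their median overlap was 97 nt of 100, 75 of 88 overlapped by 90 nt or more and 9 had the very coordinates of an RBD site.

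The members lay on 162 genes, of which 153 held 1 member, 7 held 2 and 2 held 3. The genes with 3 were RPSAP58 and PHGDH. PHGDH, the enzyme that commits a glycolytic intermediate to serine synthesis, had heights of 7, 6 and 6 in exons 7, 5 and 12 of 15, at 389, 244 and 1024 nt from the start codon. Genes with 2 members included GAPDH (heights 18 and 12), NONO (13 and 9), STIP1 (10 and 9), EIF3A (6 and 6), SMARCA4 (6 and 6) and PIAS4 (6 and 6), and the sites of the last, a SUMO ligase, overlapped each other by 21 nt. For 142 members no other FL site of any kind lay on the gene. For 31 members there was another, and it was labelled 5′ UTR, alone or with CDS, for 7 of these and 3′ UTR for 4, as in OS9, whose 3′ UTR held sites of height 8 and 9, and it was never in an intron.

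Several ribosomal proteins were among the tallest members. Height was not scaled for mRNA abundance. The height that the authors' background model gave at these sites ran from 0.1 at RPL28 to 1.14 at RPL7A, against a median of 0.03 for all members. RPS24, a protein of the small ribosomal subunit, had the tallest member (height 36, chr10:78037199-78037298), 334 nt from the start codon in exon 4 of 5, and 59 nt before the end of the coding sequence of the representative transcript. Others were RPL7A at a height of 18 (exon 6 of 8), RPL13 at 13, RPL27 at 10 and RPL28 at 7. The 7 sites of this list lay on 6 of the 89 cytosolic ribosomal protein genes and had a median height of 16, against 6 for all members. FL coding-sequence sites shared with RBD were present on 4 other ribosomal protein genes, with a median height of 17. Thus 63.6% of the coding-sequence sites of this list were FL-only, near the 66.3% of all FL coding-sequence sites.

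Of these ribosomal members, 5 of 7 had a middle 25 nt with more than 1 exact copy in the genome. The other copies of RPS24 and RPL13 lay in processed pseudogenes, which are intronless copies of an mRNA, and that of RPL28 lay within the gene TXNRD1. Over all members 18 of 173 (10.4%, interval 6.68 to 15.8) had a copied middle, against 3 of 88 shared coding sites (3.41%, interval 1.17 to 9.55) and 165 of 894 FL sites of any kind (18.5%). Without PRRC2B the shared sites had 3 of 60 (5.0%, interval 1.71 to 13.7). Both intervals of the shared sites overlapped that of the members. Reads of a copied stretch fit every copy equally well, and where the authors' mapping kept them is not stated. Among the 23 members of height 10 or more, 7 had a copied middle (30.4%). The copied members on ribosomal protein or histone genes numbered 11, counting RPSAP58.

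RPSAP58, named RPSA2 in current tables, is a close relative of RPSA, which encodes a protein of the small ribosomal subunit. It held 3 members, of height 24 (chr19:23827711-23827810), 16 and 9, at 599, 155 and 787 nt from the start codon of a coding sequence of 888 nt. Their middles had 4, 2 and 3 copies in the genome, and RPSA held a copy of the taller pair. The RBD list had a site at RPSA, on chromosome 3 from 39411700 to 39411799 with a height of 16, and an unbroken run of 78 nt in it was identical to the tallest RPSAP58 member. Neither list named both genes. By sequence, then, the tallest RPSAP58 member had a counterpart in the RBD list, although by position it had none.

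A counterpart of this kind was found for 3 members. The others were the histone H2B genes H2BU1 (height 8) and H2BC12 (height 9), which shared runs of 56 and 32 nt with the RBD site at H2BC18 (chromosome 1, 149812077 to 149812176, height 5). The remaining 170 members held no run of 25 nt found in any RBD site.

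The member under RBMX, which encodes a nuclear RNA-binding protein of the hnRNP family, was the second tallest (height 30, chrX:136879158-136879257). In GENCODE its middle lay in no complete coding sequence of RBMX, and 59 nt of the site covered SNORD61, a snoRNA of 73 nt at 136879199 to 136879271 on the same strand. It was the single member over an annotated small RNA, and the single member that could not be placed on a coding transcript. No shared coding-sequence site covered such an RNA.

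Histone and chromatin genes held the most members among the lists, 9 on 8 of 179 genes, with 3 shared sites beside them. Their FL-only share was 75.0%, near the 66.3% of all FL coding-sequence sites for a list of this size. H1-4, a linker histone, had a height of 25 (chr6:26156471-26156570), 130 nt from its start codon. H2AC11 and H2BC12, core histone genes, each had a height of 9 and H2BU1 had 8. The middles of all 3 occur in other histone genes, with 7, 3 and 4 copies in the genome. CHD8, a chromatin remodeller, and SMARCA4, the ATPase of the SWI/SNF complex with 2 members, had heights of 6.

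Splicing factors and hnRNPs held 6 members on 6 genes and 3 shared sites (66.7% FL-only, against 66.3% of all FL coding-sequence sites). SF3B2, a subunit of the U2 particle, had a height of 13 (chr11:66059810-66059909) and lay in exon 13 of 22. PRPF6, which bridges particles of the spliceosome, had a height of 10, RBM33 of 8 and RBM14 of 7, and PRPF19 and SNRPD3, further spliceosome proteins, of 6 each. All 6 had a unique middle. NONO, an RNA-binding protein of paraspeckles that is in none of the lists, had members of height 13 and 9 in exons 7 and 6 of 11, and the taller also matched a processed pseudogene. RNA helicases added 2 members and no shared site: DDX23, of the spliceosome (height 6), and DDX10 (height 4). Sites this few cannot be set apart from the 66.3% share.

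Translation factors held 5 members on 4 genes and 4 shared sites (55.6% FL-only, against 66.3% of all FL coding-sequence sites). EIF5AL1 (height 9) is a copy of the factor EIF5A, and its middle occurs in EIF5A too. EIF5, which triggers GTP hydrolysis at the start codon, had a member of height 8 at 633 nt of its coding sequence, and an FL site of height 9 in its 5′ UTR. EIF4A3, a helicase-like part of the exon junction complex, had a height of 7 at 80 nt. EIF3A had a pair of height 6, at 1775 and 2051 nt of 4149. No member lay on an aminoacyl-tRNA synthetase gene, of which 20 were listed, and no shared site did either.

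Among metabolic and folding enzymes, glycolysis had 3 members on 2 genes and no shared site. Of all FL coding-sequence sites 66.3% were FL-only, and 3 sites are too few to set apart from that share. GAPDH, which oxidises glyceraldehyde phosphate, served the study as an unbound control. The study called an mRNA bound where FL and RBD sites overlapped, so FL-only sites leave that label unchanged. It also saw no shift of GAPDH mRNA between polysome fractions after PRRC2B knockdown, and displayed its FL coverage among unbound mRNAs. The GAPDH members had heights of 18 (chr12:6537598-6537697) and 12 (chr12:6537809-6537908), both in exon 8 of 9. ALDOA, which splits fructose bisphosphate, had 9. STIP1, the organiser that hands client proteins between HSP70 and HSP90, had 10 and 9, and with BAG4 (height 5) made up the 3 chaperone members, beside 4 shared chaperone sites (42.9% FL-only). Of 17 mRNAs that the study itself tested, a list it chose on these samples, GAPDH was the single one with a member, and 6 held shared coding-sequence sites.

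The other lists held few members. DNA replication and cell cycle genes had 4, each on its own gene and with heights of 6 or 7: CDC34, CDC6, ORC1, a subunit of the origin recognition complex, and TOP2A, a topoisomerase. Proteasome and ubiquitin genes had 2, TRIM28, a transcriptional corepressor (height 10), and USP33, a deubiquitinase (5). The actin and tubulin list had MAP1B, a microtubule-associated protein (7), the list of the nucleolus and nuclear transport had NUP188, of the nuclear pore (5), and vesicle traffic had RAB8A, a GTPase of exocytosis (6). Shared sites numbered 1 on the DNA replication and cell cycle list (80% FL-only). The actin and tubulin list and the nucleolus and nuclear transport list had 2 each (33.3% FL-only in both). The proteasome and vesicle lists had 0 shared sites. Of all FL coding-sequence sites, 66.3% were FL-only, and each of these lists holds few sites. The PRRC2 family had 29 shared sites and 0 members. All lists together took in 44 of 173 members, and the other 129 lay on genes of no list.

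**Figure D2:**
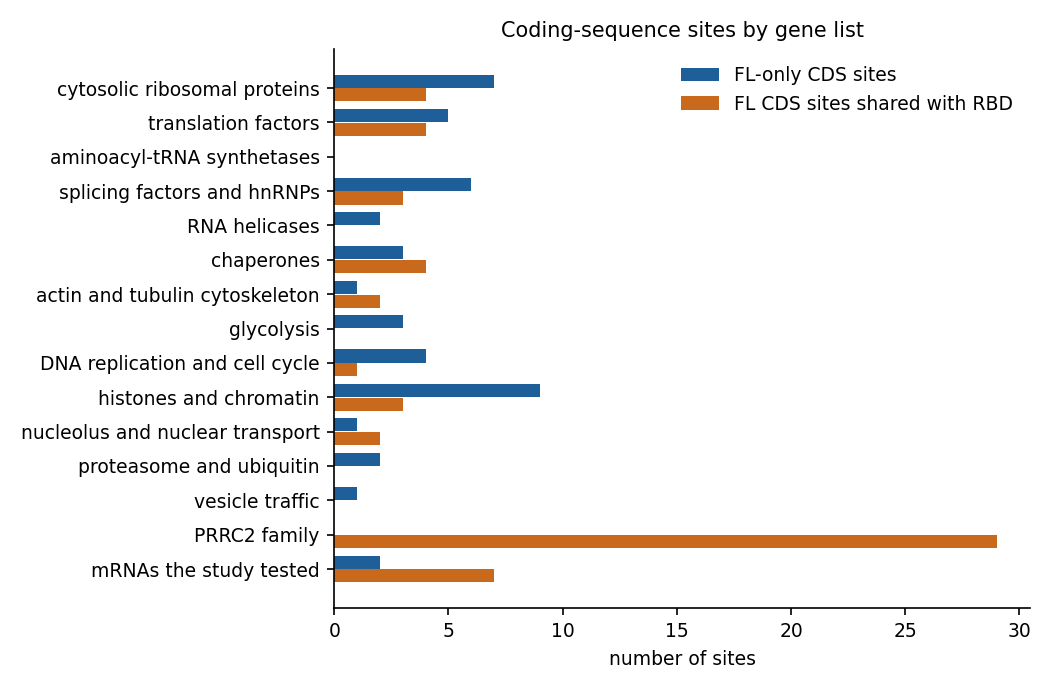
Number of FL coding-sequence sites on the genes of each list, with FL-only sites in blue and sites that overlap an RBD site in orange. Histones and chromatin hold the most FL-only sites, 9, and the PRRC2 family holds 29 shared sites and no FL-only site.

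Tall members outside these lists covered varied functions. OS9, a lectin that sorts misfolded proteins in the endoplasmic reticulum, had a height of 15 in exon 12 of 15 (chr12:57719022-57719121). FAM210A, a mitochondrial inner membrane protein, had 14. ICMT, which methylates prenylated proteins, MORF4L2, a chromatin-associated protein, and NDUFC2, a subunit of respiratory complex I, had 10 each. CREBZF, a bZIP transcription factor, closed the 25 tallest at 9.

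Below these, the height order held many values in common, and the members at 9 and below that are named next were picked after their values were seen. In all, 15 members had a height of 9. Besides those of the lists they included HOXA5, a homeobox transcription factor, with its site 109 nt from the start codon, GNL3, a GTPase of the nucleolus, at 908 nt, LSM4, part of a ring that binds the ends of small RNAs, at 82 nt, WRNIP1, a DNA replication factor, at 103 nt, and ZNF207, a spindle checkpoint protein, at 360 nt. The 7 members with a further FL site in a 5′ UTR or across its edge were on ZNF207 (heights 9 and 6), EIF5 (8 and 9), SLC16A1, a lactate transporter (7 and 5), C11orf58 (6 and 5), MLF2 (6 and 6), ZC3H11A, an mRNA export factor (6 and 8), and ARIH1, a ubiquitin ligase (5 and 5), with the member's height given first. In 2 of these genes, EIF5 and ZC3H11A, the 5′ UTR site was the taller.

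Members lay all along the coding sequence. Of 172 members placed on the longest coding transcript that holds them, 67 (39.0%, interval 32.0 to 46.4) were in the first of 3 equal parts of the coding sequence, against 30 of 86 shared sites (34.9%, interval 25.7 to 45.4). The median member lay 46.1% of the way from start to stop, and the median shared site 47.7%. With the coding sequence cut into 10 equal parts, the share was highest in the second (25 members, 14.5%, interval 10.0 to 20.6) and lowest in the last (10 members, 5.81%, interval 3.19 to 10.4). Sites whose label joins CDS with a UTR were left out by the rule, which lowers the first and last parts.

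Counted in nucleotides, 56 of 172 members (32.6%, interval 26.0 to 39.9) lay within 300 nt of the start codon. Even spacing along the same coding sequences would place 26.3% there. The shared sites had 16 of 86 (18.6%, interval 11.8 to 28.1) where even spacing would give 20.2%, or 15 of 58 (25.9%, interval 16.3 to 38.4) against 27.8% without PRRC2B, whose coding sequence is long. Nearer still, 15 members (8.72%) lay within 100 nt of the start codon, where even spacing would place 9.04%. The last 100 nt held 11 members (6.40%) against the same 9.04%. In all 3 counts the interval of the members included the value of even spacing. That value counts the whole coding sequence, whereas a 100 nt site labelled CDS alone cannot have its middle at either end. The closest middles were 54 nt from a start codon and 51 nt from the end of a coding sequence. Even spacing is therefore overstated near both ends, and these counts cannot decide whether members are more frequent there.

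**Figure D3:**
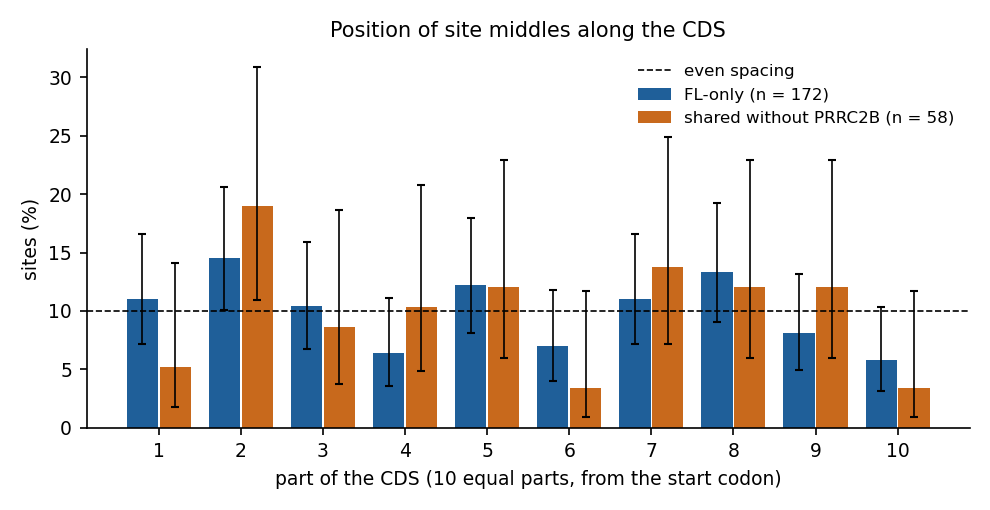
Percent of placed sites in each of 10 equal parts of the coding sequence, for FL-only sites in blue and shared sites outside PRRC2B in orange, with 95% Wilson intervals and a dashed line at even spacing. FL-only sites range from 5.81% in the last part to 14.5% in the second. Sites that reach a UTR were not taken, so the line overstates what the first and last parts could hold.

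The members nearest to a start codon were RPL27, a large-subunit ribosomal protein, at 54 nt, TMEM165, a Golgi ion transporter, at 57 nt, ABHD17C, a depalmitoylase, at 58 nt, RPL13 at 59 nt and ARPC5, a subunit of the Arp2/3 complex, at 79 nt, with heights of 10, 5, 5, 13 and 6. JAK1, a kinase of cytokine receptors (height 5), was level with ARPC5 at 79 nt. Nearest to the end of the coding sequence were TBCA, a tubulin folding cofactor, at 51 nt on the transcript used and 198 nt on the representative one, PHB, prohibitin, at 62 nt, and TNFRSF10D, a decoy receptor, at 67 nt, with heights of 8, 7 and 5. Sites that reach a UTR were not taken, so closer middles were largely excluded by the rule. The exon that held the middle had a median length of 292 nt for members and 200.5 nt for shared sites. The whole site fitted in 1 coding exon for 117 of 172 members (68.0%, interval 60.7 to 74.5) and 56 of 86 shared sites (65.1%). The middle was 12 nt or more from the nearest splice junction in every placed member with one, with a median of 67 nt.

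Purine runs were common in the members, and pyrimidine runs were nearly as common. A stretch of 15 nt with at least 80% G and A was present in the middle 41 nt of 57 of 173 members (32.9%, interval 26.4 to 40.3), in 36 of 88 shared sites (40.9%, interval 31.2 to 51.4) and in 227 of 894 FL sites of any region (25.4%). A stretch equally rich in C and U was present in 49 members (28.3%, interval 22.1 to 35.5), 27 shared sites (30.7%) and 344 FL sites (38.5%, interval 35.3 to 41.7). No member held both kinds, 67 members (38.7%) held neither, and 4 shared sites held both. The intervals of members and shared sites overlapped widely for both kinds.

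The flanks were read along the same coding sequences, in windows of 41 nt centred 100 nt before and after each site. This could be done for 137 members. Stretches rich in C and U were present in 40 of these sites (29.2%, interval 22.2 to 37.3), in 23 windows upstream (16.8%, interval 11.5 to 23.9) and in 25 downstream (18.2%, interval 12.7 to 25.6). Stretches rich in G and A had no such centre: 33.6% at the site, 31.4% upstream and 28.5% downstream. At 50 shared sites outside PRRC2B the C and U values were 30.0%, 6.0% and 22.0%, and the G and A values 42.0%, 48.0% and 26.0%. No test was made of these differences.

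**Figure D4:**
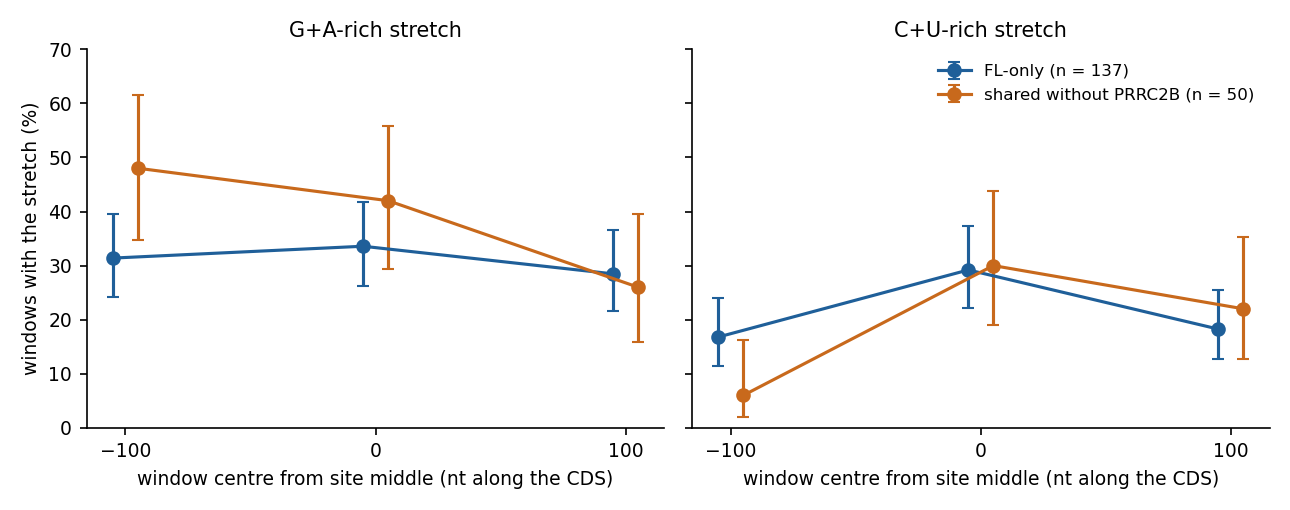
Percent of 41 nt windows that hold 15 nt with at least 80% G and A (left) or C and U (right), at the site and 100 nt upstream and downstream along the coding sequence, with 95% Wilson intervals. For FL-only sites the C and U share is 29.2% at the site and below 20% in both flanks, while the G and A share stays between 28.5% and 33.6%.

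The purest examples came from moderate peaks. A stretch made of G and A alone was held by 5 members: PRC1 (height 8), PPP1R7 (7), EIF3A (6), IGBP1 (5), a regulator of protein phosphatase 2A whose middle has 4 copies in the genome, and MAPRE1 (5), a protein of microtubule ends whose middle has 2. A stretch made of C and U alone was held by 2, SREBF2 (height 9) and HEY1 (7), a repressor downstream of Notch. At 93.3% C and U were 6 members, the tallest of them TRIM28 (10) and TM2D2 (9). Of the 23 members of height 10 or more, 13.0% held a stretch rich in C and U.

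Among tetranucleotides, those around CGA led. Per 1000 positions in the middle windows, CGAC occurred 6.85 times against 2.24 in the whole coding sequences of the same transcripts, a ratio of 3.06, and it was present in 37 members. GACG followed (ratio 2.97, 32 members), then ACGA (2.89, 29 members), ACTC (2.55, 46 members) and CTCT (2.51, 56 members). CGAC, GACG and ACGA share letters, so they can be counted in the same run. At shared sites outside PRRC2B the order was CTCT (3.45), ACGA (2.92), ACTC (2.84), TCTC (2.77) and GACG (2.61). CGAC, the first among members, had a ratio of 1.53 there and was present in 5 of 60 sites. The lowest ratios at members were those of TAGC (0.127) and TAGT (0.145), each seen once. Base composition as a whole was nearly that of the coding sequences: A 26.3% against 26.1%, C 28.0% against 26.7%, G 25.6% against 26.8% and U 20.1% against 20.4%.

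Whole motifs, picked after these values were seen and read on the RNA strand, spread over all coding-sequence sites. GAAGAA was in the middle of 24 members (13.9%, interval 9.50 to 19.8), 8 of 60 shared sites outside PRRC2B (13.3%) and 62 of 894 FL sites (6.94%). GACGA, which can share letters with it, was in 17 members (9.83%, interval 6.23 to 15.2), 5 of those 60 shared sites (8.33%) and 48 FL sites (5.37%). CTCT was in 56 members (32.4%, interval 25.8 to 39.7), 21 of the 60 (35.0%) and 370 FL sites (41.4%). Of the 13 windows printed above, those of RPS24, NONO and PPP1R7 hold GAAGAA, that of PRPF6 holds GACGA, and those of GAPDH, OS9 and SREBF2 hold CTCT.

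Read in frame, the members' middles held more codons for acidic residues than the pooled whole coding sequences of the same transcripts. Of 2236 codons, 216 encoded Glu (9.66%, interval 8.50 to 11.0) against 7.79% in the same coding sequences, and 145 encoded Asp (6.48%, interval 5.54 to 7.58) against 5.14%. Together Asp and Glu made up 16.1% (interval 14.7 to 17.7) against 12.9%. Lys, with codons of A and G like those of Glu, differed less, 6.84% (interval 5.87 to 7.96) against 6.28%. Glu and Lys together were 16.5% (interval 15.0 to 18.1) against 14.1%. The residue furthest below was Pro, with 5.14% (interval 4.30 to 6.14) against 7.55%, followed by Val (4.65% against 5.80%) and Gln (3.94% against 5.00%).

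Shared sites outside PRRC2B held still more acidic codons. Asp and Glu made up 19.4% of their 754 codons (interval 16.7 to 22.3) against 13.6% in their coding sequences, and Pro 4.11% against 6.68%. Lys was below its level there (5.84% against 7.15%), and Leu was above (11.9% against 8.63%). Codons of 1 site are not independent, so these intervals are narrower than the spread between sites. The coding sequences were pooled for members and shared sites alike, so longer ones weigh more, whereas every site adds a window of equal length. The comparison is thus not matched site by site, and codons in the flanks were not counted. Whether the mix of genes gave these differences was not tested.

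**Figure D5:**
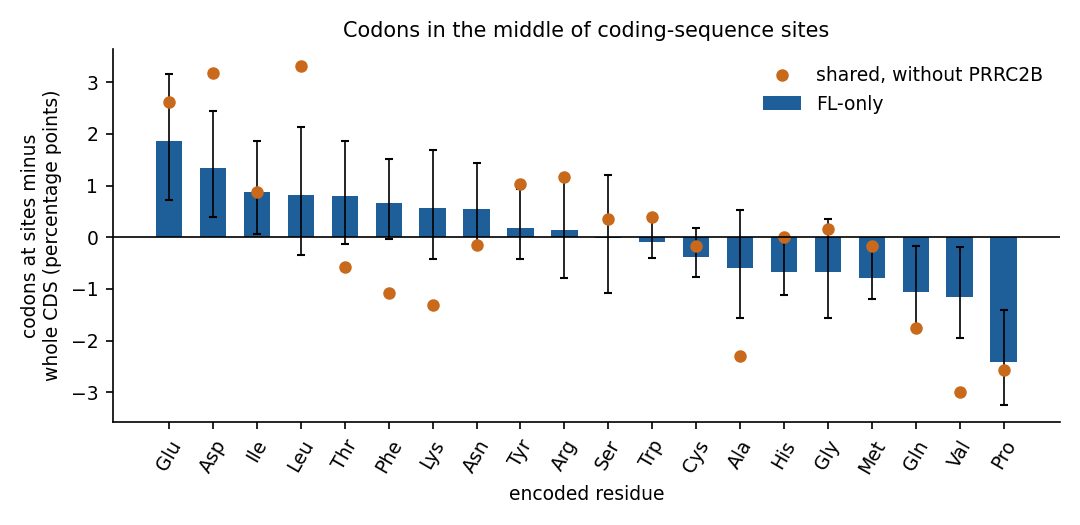
Percent of codons for each residue in the middle 41 nt of the sites minus the percent in the whole coding sequences of the same transcripts, as bars for FL-only sites with the 95% Wilson interval of the share at the sites, and as points for shared sites outside PRRC2B. Glu and Asp lie furthest above 0 for FL-only sites and Pro furthest below.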

How the data were processed

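PAR-CLIP-seq was performed on 4 samples, 2 biological replicates for each of FL and RBD. RNA was digested with RNase T1, which cuts after G, and fragments of 19 to 35 nt were read as single reads of 75 nt. Per the methods, the authors used the CLIP Tool Kit and cutadapt, took out reads that matched another in full as PCR duplicates, and mapped the rest to hg38 with Bowtie, allowing 1 mismatch and keeping the best stratum. Significant peaks around T-to-C conversions were kept. The submitters' processing notes name Bowtie 1.2.1.1, bedtools 2.30.0, bcl2fastq 2.19.0 and R 4.1.2, whereas the methods give another Bowtie version. Crosslinking at 4sU, cutting after G and mapping without splicing can shape which letters and which exon ends are seen, and their part was not tested.

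Peak height is the deposited signal, in reads of the pooled replicates and not scaled for depth. The number of reads per library is not given in the sources used here, so heights were compared within the FL list only. No value has a replicate error and no test has a sample as its unit. The authors' p-value of each site, from their scan statistic against a background model, was used only as a filter in an alternative. It was at most 0.001 for 100 of 173 members and 76 of 88 shared sites. The medians were 0.000347 for members and 1.5e-08 for shared sites. The shared values include the 28 sites on PRRC2B and were not taken without them. This p-value belongs to the calls that chose the members, so the difference is a description only. It was 0.021 for both EIF3A members and 0.0411 for HEY1.

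Records of the same position and strand were joined, which gave 894 FL and 571 RBD sites, and starts were made 1-based. Site middles were located on the longest transcript, in GENCODE release 44 on hg38, whose coding sequence holds them, and all 173 members' gene names were matched there. Windows of 41 nt, stretches of 15 nt and copies of the middle 25 nt over both strands of the genome were counted exactly, in Python 3.11.15 with numpy 2.4.6, pandas 2.3.3, scipy 1.17.1, pysam 0.24.0 and samtools 1.23.1. The counting steps were tested on planted positions and letters. Intervals are 95% Wilson, and a count of 0 was given the limit of 3 counts.

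The members, the 15 gene lists and the rules below were chosen with earlier results of these data known. Genes named are the 25 tallest members, genes with 3 or more, the 5 members nearest to an RBD site and the 5 shared sites with the least overlap, the 5 members nearest to a start codon and the 3 nearest to a stop codon, up to 4 of each list, and the 4 richest in G and A and in C and U. Some genes that these rules name are not reported here. Genes with 2 members, other list members and the motifs were named after their values were seen. Alternatives changed the region label, the overlap, the strand, the p-value, the height, the counting of records and genes, copied sequence, the transcript, the window and the richness.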

Additional observations from a re-analysis of the deposited data

Results flagged for a closer look

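The RBD position list holds 750 records and the annotated RBD list 749. The record outside the annotated list, which none of the comparisons used, is on the plus strand of chromosome 1 from 74740876 to 74740975 and has a height of 5. It overlaps no FL-only coding-sequence site, since 0 of 173 members overlapped any record of the position list. The FL position list and the annotated FL list both hold 1062 records.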

How the results depend on the processing

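Over 10 results and 86 alternatives, 71 values stayed within the 95% Wilson interval of the value given above, or within 1.5 times a count, and 15 moved further. The number of FL-only sites was 315 when labels that join CDS with another region were also taken, 107 with only records at an authors' p-value of 0.001 or less in both lists and 23 at heights of 10 or more. The FL-only share was 28.8% at those heights and, in an alternative chosen after seeing the data, 74.2% without PRRC2B. The p-value filter moved the share of members on a gene with an RBD site elsewhere to 4.67% (5 of 107), because RBD records were dropped, and the share at 10 or more to 23.4%. Heights of 10 or more also moved the share with copied middles to 30.4%, that with a C and U stretch to 13.0%, that within 300 nt of the start codon to 40.9% and the Glu and Lys codons to 14.7%. A richness of 90% lowered the stretches to 11.0% for G and A and 4.62% for C and U, and the whole site raised them to 57.2% and 45.7%. No paired analysis was possible because each deposited list pools both replicates of its construct. No library could be left out for the same reason.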
